A study of Arabidopsis thaliana with 27 samples.

Results

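Roots of ICT1-8098, an Arabidopsis thaliana line labelled as overexpressing the ribosomal protein S30, were compared with roots of the wild type Col-0, both without I3C. The comparison takes 6 of the 27 libraries of the series, chosen by their group labels alone: 3 of ICT1-8098 (replicates 1, 4 and 5) and 3 of Col-0 (replicates 3, 4 and 5). ICT1-8098 is a single homozygous line, psx08098 (3), from a FOX library, in which plants overexpress full-length cDNAs, and its transgene is under the constitutive s35 promoter. The labels do not name the S30 locus that was introduced, and no other line of that library was part of the series. Seedlings of both groups were 10 days old, were grown hydroponically in MS liquid medium with 20 seedlings per treatment, and were kept for 2 h with DMSO, the solvent of I3C. Set beside them here are 3 libraries of ICT1-8098 and 3 of Col-0 kept with 200 µM I3C, and 2 DMSO libraries of ICT1-2, named 2(5) in the labels, a homozygous line with an S30 transgene made in the laboratory.

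Protein S30 is part of the small subunit of the cytosolic ribosome, the particle that reads messenger RNA. I3C, indole-3-carbinol, arises when tissue damage lets myrosinases break down indole glucosinolates of cabbage relatives. In Arabidopsis roots it is known to arrest growth and to interfere with auxin perception. The DMSO comparison asks how the root transcriptome of the line stood against the wild type before any I3C was given.

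Sequences first show which copies of S30 the reads can tell apart. In the table, 3 genes carry the product name of ribosomal protein S30, and their coding sequences are given from the start codon to the stop codon as annotated by RefSeq on TAIR10. Capitals mark the 37 positions at which the 3 sequences differ.
AT2G19750: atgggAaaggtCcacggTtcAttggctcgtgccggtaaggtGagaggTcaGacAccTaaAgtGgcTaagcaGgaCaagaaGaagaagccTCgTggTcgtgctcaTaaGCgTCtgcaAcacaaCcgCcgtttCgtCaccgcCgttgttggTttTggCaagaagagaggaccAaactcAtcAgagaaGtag
AT4G29390: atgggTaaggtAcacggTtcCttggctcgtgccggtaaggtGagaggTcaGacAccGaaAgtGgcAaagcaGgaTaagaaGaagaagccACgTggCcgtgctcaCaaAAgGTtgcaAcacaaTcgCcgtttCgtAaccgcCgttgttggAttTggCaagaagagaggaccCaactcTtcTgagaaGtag
AT5G56670: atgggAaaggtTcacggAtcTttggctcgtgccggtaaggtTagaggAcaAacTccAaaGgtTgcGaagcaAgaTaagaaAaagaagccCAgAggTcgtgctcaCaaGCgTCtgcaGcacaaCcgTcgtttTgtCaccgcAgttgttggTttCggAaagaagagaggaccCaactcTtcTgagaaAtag
Each coding sequence had 189 bases in 3 coding exons. AT2G19750 (chr2:8515037-8515806, plus strand) differed from AT4G29390 (chr4:14465212-14465902, minus strand) at 19 bases and from AT5G56670 (chr5:22935413-22935981, minus strand) at 28 bases, while AT4G29390 and AT5G56670 differed at 32 bases. None of these differences changed an amino acid of the 62 residues, so the 3 genes encode the same protein. Their longest identical stretches were 35, 20 and 29 bases in these 3 pairs. How the counting treated reads that match several of these genes is not stated.

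With DMSO, only AT2G19750 of the 3 passed the test in ICT1-8098. It had 4961, 5672 and 6598 normalized counts in ICT1-8098, against 2094, 2403 and 3481 in Col-0 (normalized counts are reads divided by a size factor of the library, and replicates are listed in the order 1, 4, 5 and 3, 4, 5). Every library of the line lay above every Col-0 library (log2 fold change 1.13, SE 0.21, adjusted p = 0.000649). AT4G29390 had 1023, 845 and 798 normalized counts in ICT1-8098, against 1258, 1253 and 1038 in Col-0. Its values in the line were all below those of Col-0, and the difference did not pass (log2 fold change -0.42, SE 0.18, adjusted p = 0.148). AT5G56670 had 6135, 5224 and 5234 normalized counts in ICT1-8098, against 6285, 6284 and 5699 in Col-0, and its groups overlapped (log2 fold change -0.14, SE 0.17, adjusted p = 0.697). The sum over the 3 genes was 12163 ± 446 normalized counts in ICT1-8098 and 9932 ± 291 in Col-0 (SD, n = 3 each). At 200 µM I3C, AT2G19750 had 8861, 7977 and 8071 normalized counts in ICT1-8098, against 2916, 2691 and 2979 in Col-0 (1.54 on the log2 scale, adjusted p = 1.32e-05). With I3C, AT4G29390 had 662, 814 and 1078 normalized counts in ICT1-8098, against 973, 1598 and 1677 in Col-0, groups that overlapped although the gene passed as lower (-0.72, adjusted p = 0.00555). AT5G56670 had 4546, 5141 and 6281 normalized counts in ICT1-8098 with I3C, against 5412, 8195 and 9782 in Col-0, and also passed as lower with overlapping groups (-0.52, adjusted p = 0.0327). The I3C sums of the 3 genes overlapped too, at 13932 to 15430.4 in ICT1-8098, against 9302 to 14438 in Col-0. The 2 DMSO libraries of ICT1-2 had 2048 and 2811 normalized counts of AT2G19750, a range that overlaps Col-0. Their sums over the 3 genes, 9413 and 8938, lay below the Col-0 sums of 9637 to 10218. What this means for the label of S30 overexpression for ICT1-2 was not tested. Reads of a resident S30 gene and of a transgene with the same sequence cannot be told apart.

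**Figure D1:**
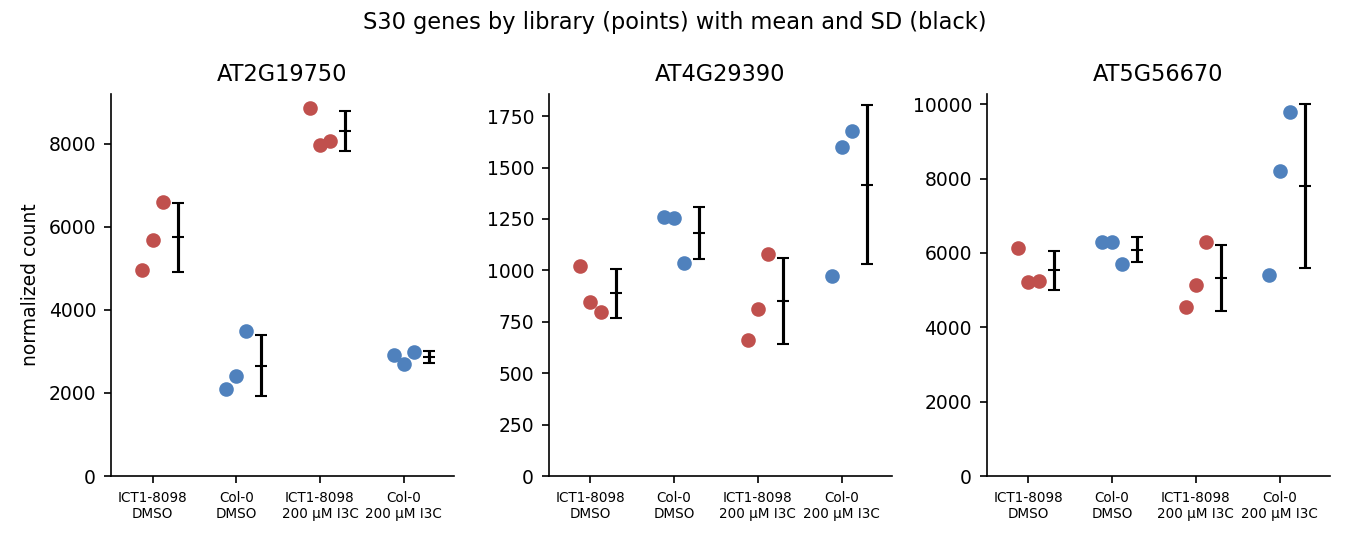
Normalized counts of the 3 S30 genes (vertical axes, 1 panel per gene) in each library of ICT1-8098 and Col-0 with DMSO and with 200 µM I3C, where points are libraries and black bars are the mean and SD of each group. AT2G19750 is higher in all ICT1-8098 libraries than in all Col-0 libraries, whereas the DMSO values of AT5G56670 overlap.

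Beyond S30, 2579 of 21180 genes tested differed between ICT1-8098 and Col-0 at an adjusted p under 0.05, which is 12.2% of the genes. 1272 genes were higher in ICT1-8098 (6.01%) and 1307 were lower (6.17%), and 714 of the higher genes and 752 of the lower ones changed by more than 1 on the log2 scale. For 2523 of the 2579 genes the groups did not overlap, a state shared by 34.9% of all genes tested. Fold changes are ICT1-8098 over Col-0 on the log2(normalized count + 1) scale, where the change of a gene with few reads is understated, and p-values are from limma. The median log2 fold change over all genes was -0.02 with the deposited size factors and 0.06 when libraries were scaled to total reads, and scaling to total reads gave 57.8% higher among 2533 calls, against 49.3% with the deposited size factors. Leaving out Col-0 replicate 4 lowered the number of calls to 1702, and leaving out Col-0 replicate 3, the library that stood apart from its group, raised it to 2701. Where a call is given below as lost, the library or setting that ended it follows with its adjusted p (a fit with the replicate number as a term is given with the other processing alternatives), and the setting of voom weights, limma's precision weights from the recovered reads, was chosen after seeing the data. Whether replicates were separate cultures is not stated in the labels, and the spread behind each p-value may thus be technical. In whole roots, fewer cells of a type and less RNA per cell cannot be told apart.

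Calls were spread over the chromosomes at nearly even shares. Chromosome 1 had 12.2% of its tested genes called, chromosomes 2 and 3 had 11.9% each, chromosome 4 had 12.7% and chromosome 5 had 12.5%. By gene type, 2474 of 20588 protein-coding genes were called (12%), as were 54 of 349 genes typed as lncRNA (15.5%) and 39 of 121 typed as ncRNA (32.2%), of which 30 were higher in ICT1-8098. The 6 libraries held 12792256 to 17012444 counted reads. Replicates of ICT1-8098 agreed at Spearman correlations of 0.987 to 0.991, and Col-0 replicate 3 stood apart from the other two Col-0 libraries (0.977 and 0.975, against 0.989 between those). The library kit does not mark strand. Overlapping and antisense genes cannot be told apart by it, which touches AT4G29390, AT5G56670, AT4G34881, AT5G51630, AT2G05914, CNGC12, FLC, FRI, RPP1, RAB18, ABF1, SULTR4;2, APR3, ORG2, FER1, PAP17, WRKY33, ERDJ3A, SARD1, WAK2, XCP1 and cPT4. Markers of root hairs, Casparian strip, suberin, and root meristem and cap had no member that passed, and shoot photosynthesis markers were detected at 1832 to 2243 summed normalized counts in ICT1-8098 and at 2477 to 6948 in Col-0.

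**Figure D2:**
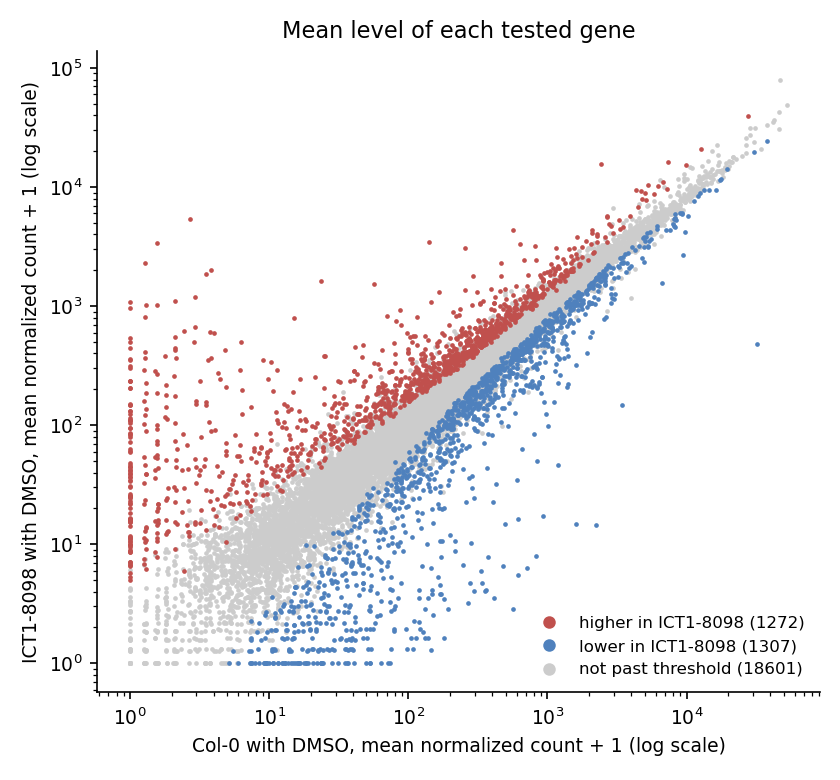
Mean normalized count + 1 of each tested gene with DMSO in ICT1-8098 (vertical axis) against that in Col-0 (horizontal axis), both on log scales, with genes higher in ICT1-8098 in red (1272), genes lower in blue (1307) and the other genes in grey. Far from the diagonal lie 120 genes above it and 82 below it that have a mean of at least 50 normalized counts in 1 group and at most 5% of that level in the other.

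The line differed from Col-0 most in genes that were nearly silent in 1 of them. A mean of at least 50 normalized counts in 1 group and at most 5% of it in the other, a rule set after the values were seen, held for 120 genes high in ICT1-8098 and for 82 genes high in Col-0. Since the rule used these values, they are given as a description. The 120 genes summed to 54305, 50711 and 49361 normalized counts in ICT1-8098, against 598, 287 and 294 in Col-0. The 82 genes summed to 418, 548 and 1822 in ICT1-8098, against 56945, 56439 and 52541 in Col-0. Replicate 5 of ICT1-8098 stood apart in the second set: it was the highest of the 3 in 58 of the 82 genes and lacked reads in 10 of them, while replicates 1 and 4 lacked reads in 51 and 48. Leaving out single libraries gave 115 to 124 genes for the first set and 77 to 84 for the second.

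Among genes high in ICT1-8098, AT4G34881 (an uncharacterized protein, chr4:16617608-16618573) had 5854, 5085 and 5216 normalized counts in ICT1-8098, against 2.47, 0 and 2.63 in Col-0. AT5G49440, also uncharacterized (chr5:20048239-20049776), had 3691, 3727 and 2769.6 normalized counts in ICT1-8098, against 0.820, 0 and 0.880 in Col-0. The value of AT5G49440 in Col-0 rests on 2 reads, which gives a ratio of 6230 with a 95% counting interval of 1724 to 51449 (such intervals cover counting error only). PP2A8, which encodes a phloem lectin-like protein (chr5:18187630-18189523), had 911, 1355 and 1000 normalized counts in ICT1-8098 and no reads in Col-0, at least 1324-fold higher when the floor is set at 3 reads over the group. Its neighbour PP2A6 (chr5:18191355-18193328) had 1048, 1131 and 1129 normalized counts in ICT1-8098, against 2.47, 0 and 0.880 in Col-0. CNGC12, a cyclic nucleotide-gated cation channel (chr2:19065536-19069569), had 401, 469 and 469 normalized counts in the line and no reads in Col-0, at least 541-fold higher. No reads in any of the 3 Col-0 libraries were found for 35 of the 120 genes.

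PER34, a class III peroxidase of the cell wall (chr3:18207651-18210333), had 2971, 1733 and 1370.2 normalized counts in ICT1-8098, against 4.94, 0 and 3.51 in Col-0. PER33 is nearly identical to PER34, so its counts are uncertain. GSL-OH, named here after its values were seen, encodes an oxygenase that hydroxylates the side chain of an aliphatic glucosinolate (chr2:10829854-10831655). It had 3601, 3216 and 3556 normalized counts in ICT1-8098, against 272, 85.8 and 59.7 in Col-0. Every library of the line was far above the highest Col-0 library (log2 fold change 4.94, SE 0.35, adjusted p = 2.16e-10). AT4G07820, whose product carries a CAP domain, had 2816, 1959 and 2125 normalized counts in ICT1-8098, against 0.820, 0 and 0 in Col-0, and AT4G14905, with kelch repeats, had 311, 307 and 316 in ICT1-8098 and no reads in Col-0 (at least 378-fold higher).

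Among genes high in Col-0 were RNAs of unknown product. AT1G67105, typed as ncRNA (chr1:25057479-25058264), had 70.8, 271 and 1088 normalized counts in ICT1-8098, against 33224, 32832 and 29472 in Col-0. AT2G05914, typed as lncRNA (chr2:2263124-2264543), had 0, 1.72 and 38.5 normalized counts in ICT1-8098, against 2010.4, 2294 and 2379 in Col-0. Both were highest within the line in replicate 5, where each lay below every Col-0 library (group log2 fold changes of -6.84 and -8.87). AT5G15360, an uncharacterized protein, had 0.830, 0 and 40.4 normalized counts in ICT1-8098, against 1469, 1798 and 1522 in Col-0. TPS25, named after its values were seen, is annotated as a terpenoid cyclase and had 179, 103 and 155 normalized counts in ICT1-8098, against 4195, 3211 and 2953 in Col-0. SULTR1;3, a sulfate transporter also named after its values were seen, had 11.7, 5.16 and 6.58 normalized counts in ICT1-8098, against 114, 275 and 263 in Col-0. AT2G44220, of the DUF239 family, had 16.7, 0 and 0 normalized counts in ICT1-8098, against 444, 546 and 455 in Col-0, and AT5G03090 had 0, 0 and 5.64 normalized counts in ICT1-8098, against 473, 695 and 533 in Col-0. No library of ICT1-8098 reached the lowest Col-0 library for any of these genes.

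Libraries that the rule did not use showed the same split. The 120 genes summed to 48947 to 51599 normalized counts in the 3 libraries of ICT1-8098 with 200 µM I3C and to 47747 to 57424 in the 8 libraries labelled ICT1-2, against 650 to 1038 in the 9 other Col-0 libraries (I3C or wounding). The 82 genes summed to 300 to 670 in ICT1-8098 with I3C and to 349 to 1135 in ICT1-2, against 30278 to 53467 in those Col-0 libraries. With 200 µM I3C, 117 of the 120 genes (97.5%) and 77 of the 82 genes (93.9%) passed in the same direction between ICT1-8098 and Col-0, where 12.5% of all genes tested passed as higher and 11.8% as lower. Of the 120 genes, 22, 22, 29, 20 and 27 lay on chromosomes 1 to 5, and the 82 genes lay on all 5 chromosomes too. In the order of tested genes along the chromosomes, 27 of the 120 and 10 of the 82 had a gene of their own set directly beside them. The line and the transgene differ from Col-0 together in these groups, so a difference that comes with the transgene and another difference between the seed stocks cannot be told apart.

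**Figure D3:**
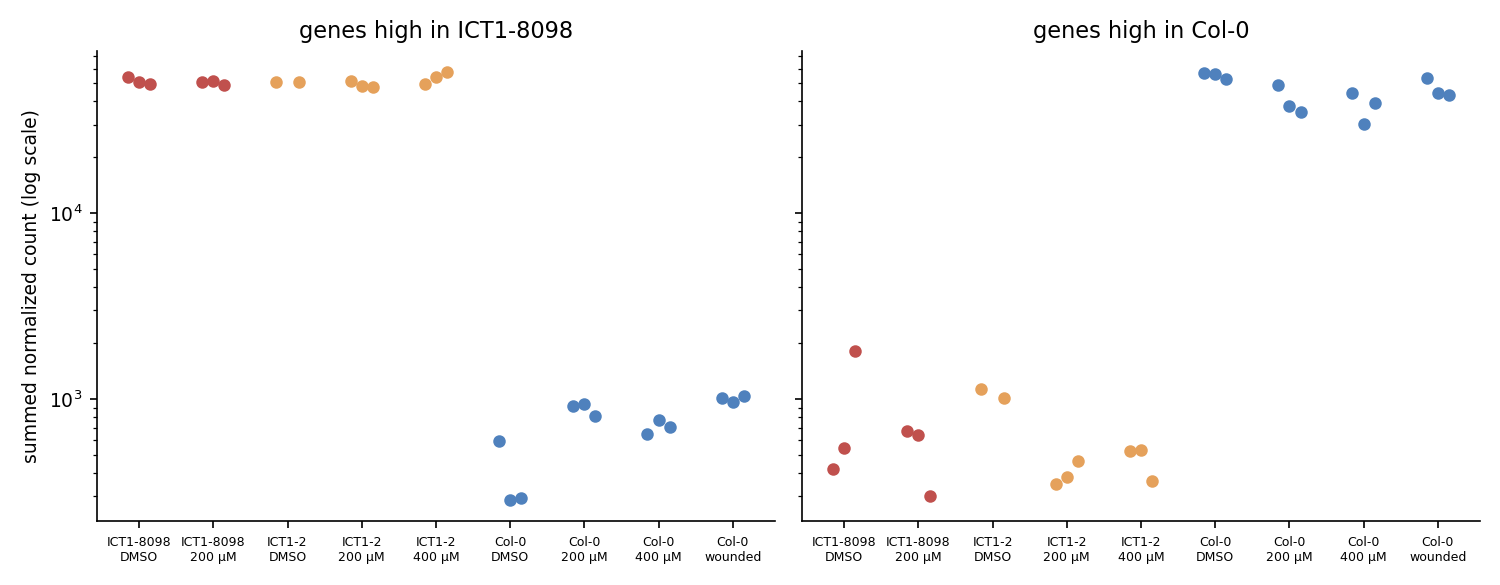
Summed normalized counts, on a log scale, of the 120 genes high in ICT1-8098 and of the 82 genes high in Col-0, for each of the 26 libraries (1 point per library, grouped by line and treatment). All ICT1 libraries hold 47747 to 57424 normalized counts of the first set, against 287 to 1038 in all Col-0 libraries, and in the second set replicate 5 of ICT1-8098 with DMSO is the highest ICT1 library at 1822.

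Immune receptor genes differed in both directions between the line and the wild type. Intracellular receptors with nucleotide-binding and leucine-rich repeat domains detect pathogen proteins inside the cell. In the list of immune receptors and marker genes, 2 of 15 tested members rose and 3 fell in ICT1-8098, where 6.01% of all genes rose and 6.17% fell. The list had a median log2 fold change of -0.16 (-0.02 over all genes). RPP1, a receptor for a downy mildew protein that was named after its values were seen, had 325, 310.4 and 318 normalized counts in ICT1-8098, against 124, 132 and 138 in Col-0. Its groups were well separated (log2 fold change 1.27, SE 0.14, adjusted p = 3.74e-07). RPP4, another downy mildew receptor, had 65.0, 39.5 and 31.9 normalized counts in ICT1-8098, against 124, 129.8 and 99.2 in Col-0, with every ICT1-8098 library below Col-0 (log2 fold change -1.40, SE 0.36, adjusted p = 0.0098). That call was lost without ICT1-8098 replicate 5 at adjusted p = 0.0667. CRK36, a cysteine-rich receptor kinase, fell to 7.50, 3.44 and 9.40 normalized counts in the line, against 29.7, 75.0 and 51.8 in Col-0 (log2 fold change -2.76, SE 0.48, adjusted p = 0.000286), and WAK2, a receptor kinase that binds pectin, had 14.2, 4.30 and 0.940 normalized counts in ICT1-8098, against 40.4, 33.2 and 24.6 in Col-0 (log2 fold change -2.62, SE 0.58, adjusted p = 0.00318).

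Genes whose product is annotated as a disease resistance protein, a class picked after the values were seen, passed in 60 of 171 tested cases (35.1%), where the share over all genes was 12.2%. In ICT1-8098, 38 of them were higher and 22 lower, with a median log2 fold change of 0.00. With 200 µM I3C, 71 of the 171 were called, against 24.2% of all genes. Of the 120 genes nearly silent in Col-0, 12 belong to this class, 1 of which (DIR14) is a dirigent-like protein and no receptor, whereas none of the 82 genes nearly silent in ICT1-8098 belongs to it. AT5G51630, of the TIR class (chr5:20969128-20975940), had 517, 489 and 487 normalized counts in ICT1-8098 and no reads in Col-0, at least 606-fold higher. AT1G72840, also of the TIR class, had 359, 336 and 404 normalized counts in ICT1-8098, against 0.820, 0 and 0 in Col-0, which is a ratio of 1332 with a 95% counting interval of 239 to 52647 because Col-0 held 1 read. Members of this class often have near-identical neighbouring copies, and the split of reads between copies is uncertain.

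Flowering regulators differed in both directions, 3 of 8 tested members higher and 1 lower (list median 0.20), where 6.01% of all genes were higher and 6.17% lower. The number higher was 2 when any single library of the comparison was left out. FLC, the MADS-box repressor of flowering (chr5:3173382-3179448), had 0, 0 and 0.940 normalized counts in ICT1-8098, against 50.3, 55.6 and 45.7 in Col-0. The 3 libraries of the line held 1 FLC read in all, against 185 reads in Col-0, a Col-0 to ICT1-8098 ratio of 174 with a 95% counting interval of 30.8 to 6906. FRI, an activator of FLC in accessions where it is functional (chr4:268901-271503), had 143, 129 and 135 normalized counts in ICT1-8098, against 19.8, 10.8 and 9.66 in Col-0, and its groups were separated (log2 fold change 3.31, SE 0.53, adjusted p = 8.8e-05). SOC1, a promoter of flowering that FLC is known to repress, had 183, 258 and 189 normalized counts in ICT1-8098, against 53.5, 60.3 and 67.6 in Col-0 (log2 fold change 1.77, SE 0.39, adjusted p = 0.00348). MAF4, a relative of FLC, had 26.6, 32.7 and 42.3 normalized counts in ICT1-8098, against 6.59, 9.27 and 7.90 in Col-0 (log2 fold change 1.95, SE 0.64, adjusted p = 0.0468). This call was lost without any one of ICT1-8098 replicates 1, 4 and 5 or Col-0 replicates 3, 4 and 5 at adjusted p = 0.0755 to 0.15 and with no filter on low counts or with a filter of 50 normalized counts or with a pseudocount of 0.5 at adjusted p = 0.0501 to 0.0644. With 200 µM I3C the order of the lines was the same for FLC, FRI and SOC1. FLC had no reads in ICT1-8098 and 37.8, 51.7 and 30.2 normalized counts in Col-0. FRI had 88.8, 105 and 124 in ICT1-8098, against 6.49, 0 and 3.63 in Col-0, and SOC1 had 289, 245 and 109.7 against 72.4, 22.1 and 31.4. The 2 DMSO libraries of ICT1-2 had 4.29 and 4.86 normalized counts of FLC and 132 and 122 of FRI.

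Most of the tested genes of the iron deficiency response fell in ICT1-8098. Roots short of iron switch on a set of basic helix-loop-helix factors, which raise the reductase and the transporter that bring iron into the epidermis. Of 24 tested members, 14 fell (58.3%, against 6.17% of all genes) and 1 rose, and the list's median log2 fold change was -1.40. The list summed to 22867, 29304 and 22767 normalized counts in ICT1-8098, against 25133, 56168 and 60616 in Col-0. Col-0 replicate 3 was thus close to the line, and Col-0 replicates 4 and 5 were about as high as each other. Leaving out 1 library changed the count: the number lower was 6 without Col-0 replicate 4, and 7 without Col-0 replicate 5, and 17 without Col-0 replicate 3.

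Of the iron-responsive factors, ORG3 had 221, 319 and 253 normalized counts in ICT1-8098, against 633, 1655 and 1419 in Col-0, and each Col-0 library was higher than the line (log2 fold change -2.12, SE 0.49, adjusted p = 0.00445). ORG2 had 71.6, 120.4 and 102 normalized counts in ICT1-8098, against 222, 783 and 544 in Col-0 (log2 fold change -2.24, SE 0.56, adjusted p = 0.00846). Its call was lost without Col-0 replicate 4 at adjusted p = 0.0703. BHLH100 had 75.8, 391 and 198 normalized counts in ICT1-8098, against 554, 1718 and 1931 in Col-0 (log2 fold change -2.75, SE 0.76, adjusted p = 0.0167). The call was lost without any one of ICT1-8098 replicate 1 or Col-0 replicates 4 and 5 at adjusted p = 0.0825 to 0.116. ORG2 and ORG3 are near-identical neighbours, so the split of reads between them is uncertain. NAS4, which makes the metal chelator nicotianamine, had 35.8, 55.0 and 33.8 normalized counts in ICT1-8098, against 157, 289.8 and 295 in Col-0. No library of the line came near the lowest Col-0 value (log2 fold change -2.52, SE 0.39, adjusted p = 5.25e-05). IRT1, the root iron transporter, and FRO2, the ferric chelate reductase, were named after their values were seen. IRT1 had 1416, 2103 and 1138 normalized counts in ICT1-8098, against 2444, 8531 and 8910.1 in Col-0 (log2 fold change -1.92, SE 0.48, adjusted p = 0.00836). FRO2 had 616, 1101 and 613 normalized counts in ICT1-8098, against 1308, 3118 and 3242 in Col-0 (log2 fold change -1.66, SE 0.46, adjusted p = 0.0167). The call of IRT1 was lost without any one of ICT1-8098 replicate 5 or Col-0 replicates 4 and 5 at adjusted p = 0.05 to 0.0639, and that of FRO2 was lost without any one of ICT1-8098 replicates 1 and 5 or Col-0 replicates 4 and 5 at adjusted p = 0.0719 to 0.0928. FER1, a ferritin that stores iron and is known to be repressed when iron is short, was also named after its values were seen and had 1388, 1039.5 and 1188 normalized counts in ICT1-8098, against 895, 568 and 568 in Col-0 (log2 fold change 0.86, SE 0.19, adjusted p = 0.00279). At 200 µM I3C, 3 of the 24 fell and 0 rose (median -0.08), where 11.8% of all genes tested were lower and 12.5% higher.

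Of 17 tested genes of sulfur deficiency, 5 rose in ICT1-8098 (29.4%, against 6.01% of all genes tested) and 0 fell, with a list median of 0.78. Among sulfur genes the number higher was 2 without ICT1-8098 replicate 1. The LSU genes encode small proteins that accumulate when sulfate runs short. LSU3 had 79.1, 56.8 and 70.5 normalized counts in ICT1-8098, against 7.42, 24.0 and 16.7 in Col-0. All ICT1-8098 values exceeded all Col-0 values (log2 fold change 2.16, SE 0.38, adjusted p = 0.000301). Its call was lost with voom weights on the recovered reads at adjusted p = 0.155. LSU2 had 209, 107 and 161 normalized counts in ICT1-8098, against 42.8, 78.0 and 65.9 in Col-0 (log2 fold change 1.33, SE 0.31, adjusted p = 0.00498), and LSU1 had 98.3, 34.4 and 34.8 normalized counts in ICT1-8098, against 16.5, 12.4 and 27.2 in Col-0 (log2 fold change 1.42, SE 0.42, adjusted p = 0.0278). These calls were lost with voom weights on the recovered reads at adjusted p = 0.0594 for LSU2, and without any one of ICT1-8098 replicate 1 or Col-0 replicates 3 and 4 at adjusted p = 0.0648 to 0.205 and with only the compared groups in the fit or with voom weights on the recovered reads at adjusted p = 0.0873 to 0.373 for LSU1. SULTR4;2, a vacuolar sulfate exporter, had 557, 271 and 418 normalized counts in ICT1-8098, against 208, 179 and 226 in Col-0 (log2 fold change 0.97, SE 0.23, adjusted p = 0.00683), and was lost without ICT1-8098 replicate 1 at adjusted p = 0.066. APR3, an adenylylsulfate reductase named after its values were seen, had 1664, 1524 and 1831 normalized counts in ICT1-8098, against 922, 983 and 863 in Col-0 (log2 fold change 0.86, SE 0.24, adjusted p = 0.0178), and was lost without any one of ICT1-8098 replicates 1 and 5 or Col-0 replicate 5 at adjusted p = 0.0514 to 0.0771. Sulfur-list sums were 11469, 9542 and 10570.1 normalized counts in ICT1-8098 and 7641, 8734 and 8852 in Col-0.

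Of 17 tested genes of phosphate starvation, 4 fell (6.17% of all genes fell) and 0 rose (median -0.64, -0.40 to -0.39 without any one of Col-0 replicates 4 and 5). PHT1-2, a root phosphate transporter, had 5.00, 6.88 and 6.58 normalized counts in ICT1-8098, against 62.6, 81.9 and 65.9 in Col-0 (log2 fold change -3.31, SE 0.70, adjusted p = 0.00214). IPS1, a non-coding RNA induced by phosphate starvation, had 9.99, 4.30 and 11.3 normalized counts in ICT1-8098, against 45.3, 59.5 and 76.4 in Col-0 (log2 fold change -2.75, SE 0.58, adjusted p = 0.00207). PAP17, an acid phosphatase, had 61.6, 43.9 and 49.8 normalized counts in ICT1-8098, against 113, 199 and 188 in Col-0 (log2 fold change -1.64, SE 0.26, adjusted p = 7.79e-05). Groups did not overlap for any of these, and the largest ICT1-8098 value was below the smallest Col-0 value each time. The gene listed as PHT1, whose product is phosphate transporter 1;8, also passed (-2.77, adjusted p = 0.0137). That call was lost without any one of ICT1-8098 replicates 4 and 5 or Col-0 replicates 4 and 5 at adjusted p = 0.0563 to 0.0791. In the nitrate list, 1 of 12 members rose and 2 fell, 25% called against 12.2% of all genes (median -0.44, -0.74 to -0.23 without any one of ICT1-8098 replicates 1 and 5 or Col-0 replicates 3 and 5). NIA2, the main nitrate reductase, had 1702, 3114 and 2778 normalized counts in ICT1-8098, against 4158, 5091 and 5155 in Col-0 (log2 fold change -0.96, SE 0.17, adjusted p = 0.000257). Nitrate reductase NIA1 (-1.04, adjusted p = 0.0368) was lost without any one of ICT1-8098 replicates 1 and 5 or Col-0 replicates 4 and 5 at adjusted p = 0.0654 to 0.234 and with only the compared groups in the fit or with total-read scaling at adjusted p = 0.0621 to 0.0648, and BT2, a BTB and TAZ domain protein, (1.63, adjusted p = 0.0135) was lost without any one of ICT1-8098 replicate 5 or Col-0 replicates 4 and 5 at adjusted p = 0.0698 to 0.122 and with only the compared groups in the fit at adjusted p = 0.0616.

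Abscisic acid is the hormone of drought and seed dormancy, and bZIP factors carry its signal to genes that hold the element ACGTG in their upstream region. Of 23 tested members of the abscisic acid, drought and cold list, 5 fell (21.7%, against 6.17% of all genes), 1 rose and 17 did not pass (median -0.04, -0.19 to -0.09 without any one of ICT1-8098 replicates 1, 4 and 5 or Col-0 replicates 3 and 4). RAB18, a dehydrin, had 9.16, 6.02 and 1.88 normalized counts in ICT1-8098, against 198, 213 and 333 in Col-0. LTI65, a protein of drought and cold responses, had 5.83, 0.860 and 2.82 normalized counts in ICT1-8098, against 59.3, 88.9 and 71.1 in Col-0. LEA46, a late embryogenesis abundant protein, had 5.00, 3.44 and 2.82 normalized counts in ICT1-8098, against 35.4, 54.1 and 50.1 in Col-0. TSPO, a membrane protein induced by osmotic stress, had 0, 2.58 and 1.88 normalized counts in ICT1-8098, against 12.4, 9.27 and 32.5 in Col-0. In each of these 4 genes the whole line lay below the whole wild type.

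RAB18 (log2 fold change -5.36, SE 0.96, adjusted p = 0.000347) and LTI65 (log2 fold change -4.33, SE 0.77, adjusted p = 0.000331) passed with the largest falls. LEA46 (log2 fold change -3.33, SE 0.61, adjusted p = 0.000487) and TSPO (log2 fold change -2.93, SE 0.82, adjusted p = 0.018) followed. LEA46 was lost with voom weights on the recovered reads at adjusted p = 0.223, and TSPO was lost without any one of ICT1-8098 replicate 1 or Col-0 replicate 5 at adjusted p = 0.109 to 0.11 and with a pseudocount of 5 or with voom weights on the recovered reads at adjusted p = 0.0518 to 0.066. RD22, a drought-responsive BURP protein (-0.74, adjusted p = 0.0038), fell and ABF1, a bZIP factor of the pathway (0.88, adjusted p = 0.000629), rose, both named after their values were seen. NCED3, a drought-induced enzyme of abscisic acid synthesis, had 24.1, 39.5 and 28.2 normalized counts in ICT1-8098, against 47.8, 221 and 307 in Col-0 (log2 fold change -2.27, SE 0.51, adjusted p = 0.00365). This call was lost with voom weights on the recovered reads at adjusted p = 0.117. NCED9, its relative known from seeds, had 2.5, 9.46 and 7.52 normalized counts in ICT1-8098, against 11.5, 40.2 and 30.7 in Col-0 (log2 fold change -1.90, SE 0.46, adjusted p = 0.00618). The call was lost without any one of ICT1-8098 replicate 1 or Col-0 replicate 4 at adjusted p = 0.0579 to 0.0592 and with only the compared groups in the fit at adjusted p = 0.0659. These were the 2 of 9 synthesis and breakdown genes that passed (22.2%, against 12.2% of all genes), none of them higher (median -0.10, turning to 0.02 to 0.32 without any one of ICT1-8098 replicates 1 and 5 or Col-0 replicates 4 and 5). For the abscisic acid synthesis list the number higher was 1 without Col-0 replicate 3, and the number lower was 1 without any one of ICT1-8098 replicate 1 or Col-0 replicate 4. No clade A protein phosphatase 2C, the co-receptors of the hormone, passed among 9 (median -0.27, -0.44 without Col-0 replicate 3). Among phosphatase genes the number lower was 1 without Col-0 replicate 3. With 200 µM I3C, RAB18 (-2.33, adjusted p = 0.0785) and LTI65 (-2.03, adjusted p = 0.0574) did not pass. The abscisic acid, drought and cold list then had 2 members higher, 1 lower and a median of 0.46. With I3C, 12.5% of all genes tested were higher and 11.8% lower.

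The 250 bases before the annotated start of 4 genes of the abscisic acid, drought and cold list are shown on their coding strand, 5′ to 3′, from the TAIR10 genome of RefSeq. These 4 were picked as the passing list members with the largest changes. Capitals mark the letters ACGTG or, for the other strand, CACGT, including matches that overlap each other.
RAB18, chr5:26519448-26519697, minus strand: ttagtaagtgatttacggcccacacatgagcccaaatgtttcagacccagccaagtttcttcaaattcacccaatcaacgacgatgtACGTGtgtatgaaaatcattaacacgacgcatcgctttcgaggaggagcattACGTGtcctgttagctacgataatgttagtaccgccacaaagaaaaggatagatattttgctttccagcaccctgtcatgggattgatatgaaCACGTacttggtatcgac
LTI65, chr5:21236771-21237020, plus strand: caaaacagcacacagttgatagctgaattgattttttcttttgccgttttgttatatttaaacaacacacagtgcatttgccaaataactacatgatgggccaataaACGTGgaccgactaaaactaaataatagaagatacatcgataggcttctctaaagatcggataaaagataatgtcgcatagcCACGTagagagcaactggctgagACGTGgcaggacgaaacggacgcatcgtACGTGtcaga
LEA46, chr5:2090431-2090680, minus strand: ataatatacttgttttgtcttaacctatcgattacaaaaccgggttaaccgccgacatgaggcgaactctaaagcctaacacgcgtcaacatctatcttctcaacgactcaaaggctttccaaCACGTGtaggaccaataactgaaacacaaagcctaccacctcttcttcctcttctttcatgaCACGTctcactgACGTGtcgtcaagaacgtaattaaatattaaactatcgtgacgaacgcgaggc
TSPO, chr2:19568214-19568463, plus strand: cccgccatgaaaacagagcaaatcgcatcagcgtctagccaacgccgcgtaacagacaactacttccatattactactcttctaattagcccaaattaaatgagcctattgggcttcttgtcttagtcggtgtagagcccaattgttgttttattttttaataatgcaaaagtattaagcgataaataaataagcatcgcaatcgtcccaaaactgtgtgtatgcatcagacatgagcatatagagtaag
RAB18 held 3 matches, LTI65 held 4, LEA46 held 4 and TSPO held none in this window. At least 1 match was present before 4870 of 20510 protein-coding genes tested (23.7%) and before 14 of the 23 list members (60.9%), and 2 or more were present in 9.69% and 30.4%. A match is a run of letters, not a bound site.

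**Figure D4:**
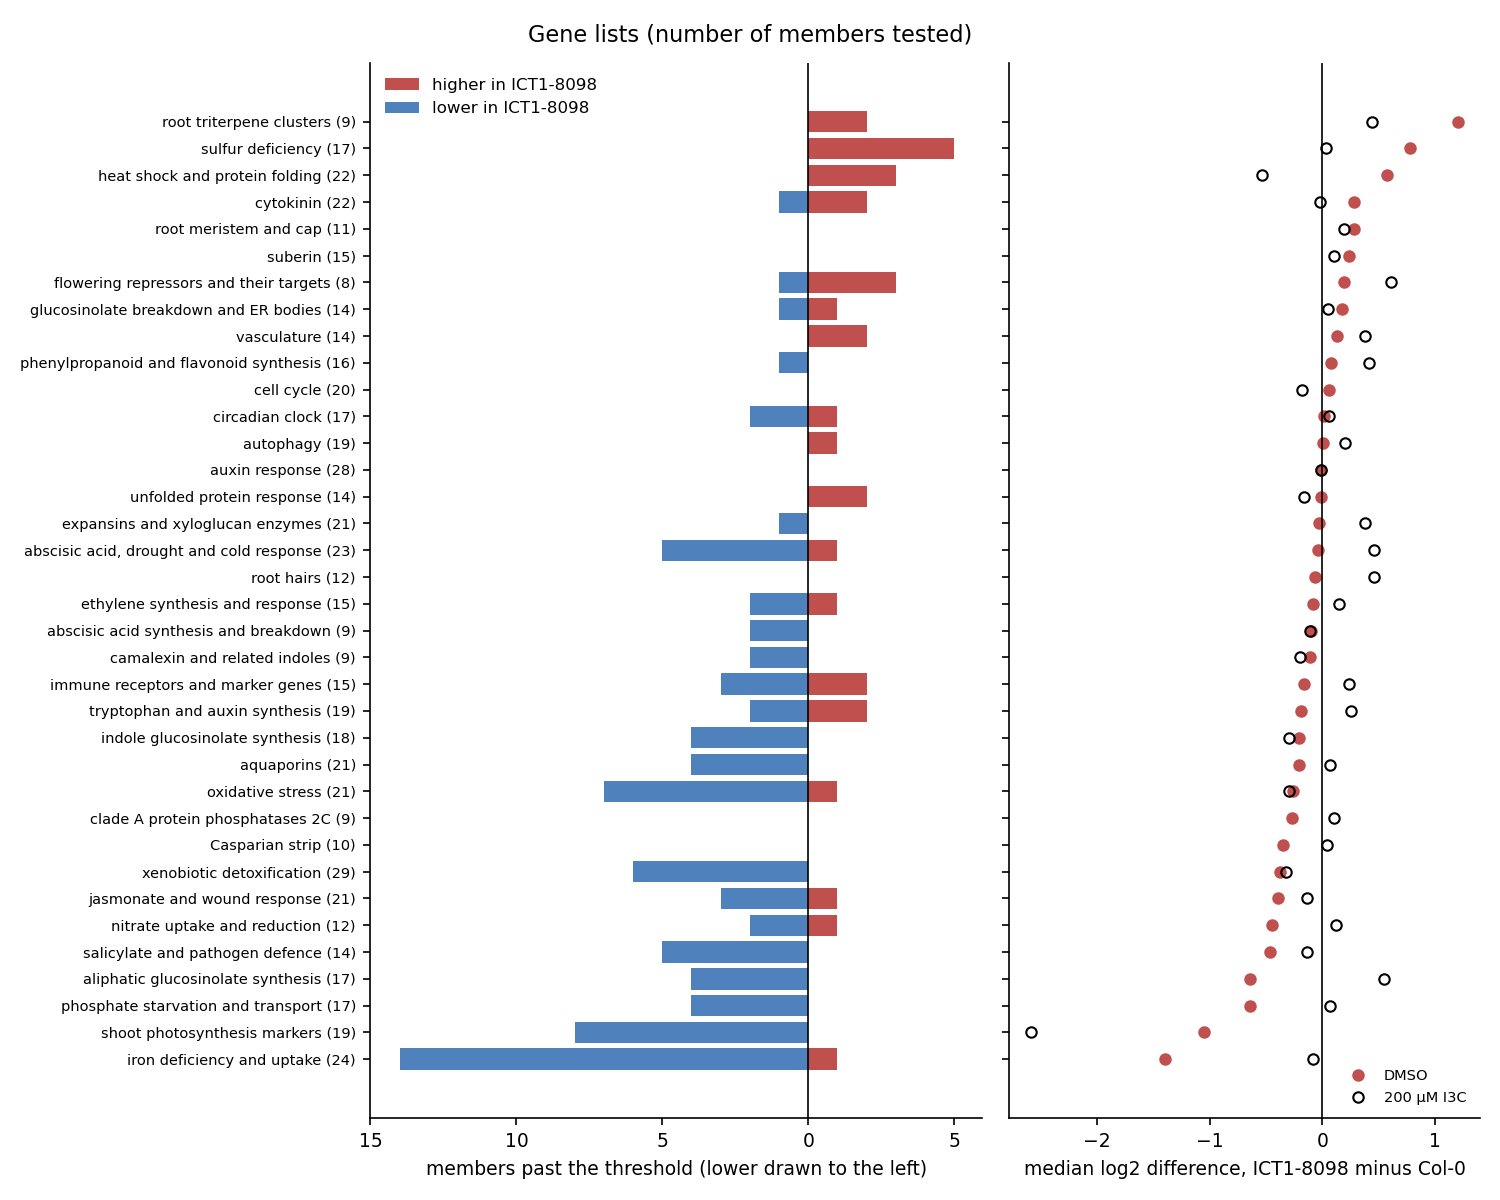
Left, number of members of each gene list that passed with DMSO, higher in ICT1-8098 to the right (red) and lower to the left (blue), and right, median log2 difference of the list, ICT1-8098 minus Col-0, with DMSO (filled) and with 200 µM I3C (open), ordered by the DMSO median and with the number of members tested in parentheses. The iron list extends farthest to the lower side, with 14 of 24 members, and the sulfur list farthest to the higher side, with 5 of 17.

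The listed glucosinolate synthesis genes that passed were lower, whereas GSL-OH, which is outside the lists, was higher as given above. Aliphatic glucosinolates are made from methionine and indole glucosinolates, the source of I3C, from tryptophan. Of 17 aliphatic genes tested, 4 fell and 0 rose (median -0.64), where 6.17% of all genes fell and 6.01% rose. AOP3, a side-chain oxygenase (chr4:1343845-1346436), had 1.67, 3.44 and 8.46 normalized counts in ICT1-8098, against 535, 713 and 597 in Col-0. CYP79F1, which starts core synthesis from chain-elongated methionine, had 5.83, 1.72 and 1.88 normalized counts in ICT1-8098, against 59.3, 114 and 51.8 in Col-0. Both genes were low in all libraries of the line (log2 fold change -6.99, SE 0.59, adjusted p = 4.65e-09, and log2 fold change -4.25, SE 0.68, adjusted p = 9.25e-05, for AOP3 and CYP79F1). MYB29, a transcription factor of the pathway, had 0.830, 0 and 0 normalized counts in ICT1-8098, against 28.0, 20.1 and 15.8 in Col-0, 1 read in the line against 78 in Col-0, a Col-0 to ICT1-8098 ratio of 73.3 (95% counting interval 12.8 to 2933). SOT17, a sulfotransferase, also passed (-0.83, adjusted p = 0.0318), and was lost without any one of ICT1-8098 replicates 1, 4 and 5 or Col-0 replicates 4 and 5 at adjusted p = 0.0709 to 0.185 and with total-read scaling at adjusted p = 0.0577. At 200 µM I3C, 5 of the 17 aliphatic genes were higher in the line and 4 lower (median 0.54). Over all genes tested, 12.5% were higher and 11.8% lower with I3C.

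Of 18 indole glucosinolate genes, 4 fell (22.2%, against 6.17% of all genes) and 0 rose (median -0.21, -0.36 to -0.12 without any one of Col-0 replicates 3 and 4). For the indole glucosinolate list the number lower was 1 without any one of ICT1-8098 replicates 4 and 5 or Col-0 replicate 4, and 2 without Col-0 replicate 5. MYB51, a transcription factor of indole glucosinolate synthesis, had 182, 222 and 179 normalized counts in ICT1-8098, against 349, 639.9 and 723 in Col-0, with no overlap (log2 fold change -1.49, SE 0.34, adjusted p = 0.00369). IGMT1, a methyltransferase of the indole ring, had 1591, 820.3 and 1046 normalized counts in ICT1-8098, against 3692, 2869 and 2519 in Col-0 (log2 fold change -1.43, SE 0.41, adjusted p = 0.0213). That call was lost without any one of ICT1-8098 replicates 4 and 5 or Col-0 replicates 3 and 4 at adjusted p = 0.0586 to 0.113, and IGMT2 is nearly identical to it. TSB2, the beta subunit of tryptophan synthase, had 196, 214 and 246 normalized counts in ICT1-8098, against 848, 872 and 882 in Col-0. The Col-0 values were all several times those of the line (log2 fold change -1.99, SE 0.13, adjusted p = 4.45e-11). NIT1, a nitrilase, had 737, 414 and 597 normalized counts in ICT1-8098, against 360.1, 192 and 199 in Col-0 (log2 fold change 1.24, SE 0.29, adjusted p = 0.00499). The tryptophan and auxin synthesis list had 2 of 19 members higher and 2 lower, 21.1% called against 12.2% of all genes (median -0.19, -0.32 to -0.12 without any one of Col-0 replicates 3 and 5). The others were YUC2 (3.72, adjusted p = 0.0111, lost without any one of ICT1-8098 replicates 4 and 5 at adjusted p = 0.0527 to 0.0619) and TAR2 (-0.86, adjusted p = 0.0118, lost without any one of ICT1-8098 replicates 1 and 5 or Col-0 replicate 5 at adjusted p = 0.0543 to 0.0744).

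Among genes of glucosinolate breakdown and ER bodies, the myrosinase stores of the root, 1 of 14 rose and 1 fell, 14.3% called against 12.2% of all genes (median 0.18, 0.11 to 0.32 without any one of ICT1-8098 replicate 1 or Col-0 replicate 3). BGLU18, a beta-glucosidase, had 2.5, 2.58 and 5.64 normalized counts in ICT1-8098, against 42.8, 47.9 and 32.5 in Col-0, and no library of the line reached Col-0 (log2 fold change -3.25, SE 0.50, adjusted p = 5.69e-05). NAI2, an ER body component, had 11647, 9898 and 11846 normalized counts in ICT1-8098, against 7043, 6409.6 and 6797 in Col-0 (log2 fold change 0.72, SE 0.22, adjusted p = 0.0333). That call was lost without any one of ICT1-8098 replicates 1 and 5 or Col-0 replicates 3, 4 and 5 at adjusted p = 0.0522 to 0.114. In the camalexin list 2 of 9 genes fell (22.2%, against 6.17% of all genes), GSTU4 (-1.41, adjusted p = 0.00821) and WRKY33 (-0.95, adjusted p = 0.0254), and none rose (median -0.11, turning to 0.15 without Col-0 replicate 4 and to -0.59 without Col-0 replicate 3). These calls were lost without any one of ICT1-8098 replicates 1 and 4 at adjusted p = 0.0525 to 0.0712 and with only the compared groups in the fit or with voom weights on the recovered reads at adjusted p = 0.0582 to 0.166 for GSTU4 and without any one of ICT1-8098 replicates 1, 4 and 5 or Col-0 replicates 4 and 5 at adjusted p = 0.0565 to 0.162 for WRKY33.

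Of 29 detoxification genes tested, 6 fell (20.7%, against 6.17% of all genes) and 0 rose (median -0.38). Among detoxification genes the number lower was 3 without Col-0 replicate 4. GSTU24, a glutathione transferase, had 229, 329 and 407 normalized counts in ICT1-8098, against 1060.4, 2001 and 1762 in Col-0. All 3 Col-0 libraries were above the line (log2 fold change -2.31, SE 0.24, adjusted p = 1.54e-07). CYP81D8, a cytochrome P450 induced by foreign compounds, had 61.6, 46.4 and 38.5 normalized counts in ICT1-8098, against 120.3, 224 and 201 in Col-0 (log2 fold change -1.85, SE 0.30, adjusted p = 0.000107). Among 21 oxidative stress genes, 7 fell (33.3%) and 1 rose (median -0.26, -0.40 to -0.17 without any one of ICT1-8098 replicate 5 or Col-0 replicate 5). For the oxidative stress list the number higher was 2 without Col-0 replicate 3, and the number lower was 4 without Col-0 replicate 4. ZAT10 and ZAT12, zinc finger factors of stress responses, and OXI1, a kinase of oxidative bursts, fell (-1.51, adjusted p = 0.000386, -1.23, adjusted p = 0.000576 and -1.06, adjusted p = 0.000313). FSD1, the iron superoxide dismutase, had 9293, 9012 and 9245 normalized counts in ICT1-8098, against 7690.4, 3417 and 3085 in Col-0 (log2 fold change 1.08, SE 0.24, adjusted p = 0.00292). Its call was lost with only the compared groups in the fit at adjusted p = 0.0537.

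Of 22 heat-list genes tested, 3 rose and 0 fell, which is 13.6% called, against 12.2% of all genes (median 0.58). Among heat genes the number higher was 1 without any one of ICT1-8098 replicate 4 or Col-0 replicate 4. HSP18.1, a cytosolic small heat shock protein, had 51.6, 78.2 and 31.0 normalized counts in ICT1-8098, against 3.3, 3.86 and 7.90 in Col-0. The lowest line value was well above the highest Col-0 value (log2 fold change 3.16, SE 0.35, adjusted p = 3.99e-07). HSFA2, a heat shock factor (0.98, adjusted p = 0.0263), and HSP23.5, a mitochondrial chaperone (0.97, adjusted p = 0.0403), passed by less. They were lost without any one of ICT1-8098 replicates 4 and 5 or Col-0 replicates 4 and 5 at adjusted p = 0.0679 to 0.175 and with only the compared groups in the fit or with voom weights on the recovered reads at adjusted p = 0.0993 to 0.31 for HSFA2, and without any one of ICT1-8098 replicates 4 and 5 or Col-0 replicates 3 and 4 at adjusted p = 0.138 to 0.193 and with only the compared groups in the fit or with voom weights on the recovered reads at adjusted p = 0.126 to 0.132 for HSP23.5. In the unfolded protein response list, 2 of 14 rose and 0 fell, which is 14.3% called, against 12.2% of all genes (median -0.01, turning to 0.01 to 0.07 without any one of ICT1-8098 replicates 1 and 5 or Col-0 replicates 4 and 5). These were MED37A, an Hsp70 of the endoplasmic reticulum (0.41, adjusted p = 0.0145, lost without Col-0 replicate 3 at adjusted p = 0.0666), and the co-chaperone ERDJ3A (1.11, adjusted p = 0.0103, lost without any one of ICT1-8098 replicate 5 or Col-0 replicate 3 at adjusted p = 0.052 to 0.0583 and with only the compared groups in the fit or with voom weights on the recovered reads at adjusted p = 0.0514 to 0.358).

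Of 14 genes of salicylate and pathogen defence, 5 fell (35.7%, against 6.17% of all genes) and 0 rose (median -0.46). For the salicylate list the number lower was 2 without any one of ICT1-8098 replicate 5 or Col-0 replicate 5, and 3 without any one of ICT1-8098 replicates 1 and 4 or Col-0 replicate 4. ALD1, which makes the precursor of the defence signal pipecolic acid, had 195, 143 and 131 normalized counts in ICT1-8098, against 391, 1034 and 1394 in Col-0. It was lower in every library of the line (log2 fold change -2.42, SE 0.43, adjusted p = 0.000367). GRXC9, a glutaredoxin induced by salicylate, had 29.1, 31.8 and 26.3 normalized counts in ICT1-8098, against 56.0, 87.3 and 98.4 in Col-0 (log2 fold change -1.40, SE 0.26, adjusted p = 0.000423), lost with voom weights on the recovered reads at adjusted p = 0.0926. WRKY70 (-1.03, adjusted p = 0.0122) was lost without any one of ICT1-8098 replicate 5 or Col-0 replicate 5 at adjusted p = 0.0618 to 0.106, and SARD1 (-1.22, adjusted p = 0.0384) was lost without any one of ICT1-8098 replicates 1, 4 and 5 or Col-0 replicates 4 and 5 at adjusted p = 0.057 to 0.212 and with total-read scaling or with voom weights on the recovered reads at adjusted p = 0.053 to 0.131. Both are transcription regulators of salicylate defence. In the jasmonate and wound list 1 of 21 rose and 3 fell, 19.0% called against 12.2% of all genes (median -0.39, -0.17 without ICT1-8098 replicate 1). Among jasmonate genes the number lower was 0 without any one of ICT1-8098 replicate 4 or Col-0 replicate 5. VSP2, a storage protein induced by jasmonate, was the single member of this list that rose. It had 139, 185 and 63.9 normalized counts in ICT1-8098, against 7.42, 18.6 and 12.3 in Col-0, with all line values above Col-0 (log2 fold change 3.2, SE 0.56, adjusted p = 0.0003). Among ethylene-list members 1 of 15 rose and 2 fell, 20% called against 12.2% of all genes (median -0.08, turning to 0.01 without ICT1-8098 replicate 5). For the ethylene list the number higher was 0 without any one of Col-0 replicates 4 and 5, and 2 without Col-0 replicate 3, and the number lower was 0 without any one of ICT1-8098 replicate 5 or Col-0 replicate 4, and 1 without ICT1-8098 replicate 4.

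Root triterpene genes had the highest median of the 37 lists, 1.21, and 2 of 9 passed as higher (22.2%, against 6.01% of all genes). Among triterpene genes the number higher was 1 without any one of ICT1-8098 replicate 1 or Col-0 replicate 4, and 4 without any one of ICT1-8098 replicate 4 or Col-0 replicate 3. THAS1, thalianol synthase, had 1175, 389 and 509 normalized counts in ICT1-8098, against 63.4, 71.9 and 129 in Col-0. Its groups did not overlap (log2 fold change 2.86, SE 0.61, adjusted p = 0.00225). MRN1, marneral synthase, had 368, 24.9 and 49.8 normalized counts in ICT1-8098, against 4.12, 0.770 and 2.63 in Col-0 (log2 fold change 4.62, SE 1.25, adjusted p = 0.0154), lost without any one of ICT1-8098 replicate 1 or Col-0 replicate 4 at adjusted p = 0.0779 to 0.115 and with voom weights on the recovered reads at adjusted p = 0.183. Aquaporin genes fell in 4 of 21 cases (19.0%, against 6.17% of all genes) and rose in 0 (median -0.21, -0.12 without ICT1-8098 replicate 5). For the aquaporin list the number lower was 1 without Col-0 replicate 4, and 2 without ICT1-8098 replicate 4. TIP2-3, a vacuolar aquaporin that also passes ammonia, had 954, 414 and 292 normalized counts in ICT1-8098, against 1909, 2520.1 and 1653 in Col-0 (log2 fold change -2.03, SE 0.31, adjusted p = 5.16e-05). ATG8B, which encodes the ubiquitin-like coat protein of autophagosomes, had 449.8, 427 and 429.5 normalized counts in ICT1-8098, against 219, 235 and 198 in Col-0 (log2 fold change 1.0, SE 0.20, adjusted p = 0.00118). It was the single autophagy gene of 19 to pass, 5.26% called against 12.2% of all genes (median 0.01, turning to -0.03 to -0.01 without any one of ICT1-8098 replicate 4 or Col-0 replicates 3, 4 and 5). CKX4, a cytokinin-degrading oxidase, had 307, 204 and 222 normalized counts in ICT1-8098, against 56.9, 112 and 93.1 in Col-0 (log2 fold change 1.5, SE 0.36, adjusted p = 0.00568). The cytokinin list had 2 of 22 members higher and 1 lower, 13.6% called against 12.2% of all genes (median 0.28). Among cytokinin genes the number higher was 1 without any one of ICT1-8098 replicates 1, 4 and 5 or Col-0 replicate 4, and the number lower was 0 without any one of ICT1-8098 replicates 1, 4 and 5 or Col-0 replicates 3, 4 and 5.

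Auxin response genes, which I3C is known to affect, showed no call among 28 tested in DMSO (median -0.01, turning to 0.01 to 0.07 without any one of ICT1-8098 replicate 1 or Col-0 replicates 4 and 5), and the same was true of 20 cell cycle genes (median 0.06, turning to -0.01 without Col-0 replicate 4), where the number lower was 1 without Col-0 replicate 3. No call was found either among 12 root hair genes (median -0.06, turning to 0.04 to 0.11 without any one of ICT1-8098 replicate 1 or Col-0 replicate 4), 10 Casparian strip genes (median -0.35, -0.20 without Col-0 replicate 4), 15 suberin genes (median 0.24, 0.04 to 0.06 without any one of ICT1-8098 replicates 4 and 5 or Col-0 replicate 3) and 11 genes of root meristem and cap (median 0.28). A missed threshold does not show that these genes were alike in both lines. GH3.4, an auxin-responsive gene outside the auxin list that was noted after its values were seen, is among the 82 genes high in Col-0. Of 14 vasculature genes 2 rose and 0 fell, 14.3% called against 12.2% of all genes (median 0.13, 0.04 to 0.24 without any one of ICT1-8098 replicates 4 and 5 or Col-0 replicates 3 and 5). These were the xylem peptidases XCP2 (0.80, adjusted p = 0.0101, lost without ICT1-8098 replicate 1 at adjusted p = 0.071) and XCP1 (0.66, adjusted p = 0.024, lost without any one of ICT1-8098 replicates 1 and 4 or Col-0 replicates 3 and 5 at adjusted p = 0.0664 to 0.135). Of 17 clock genes 1 rose and 2 fell (median 0.01, turning to -0.09 to -0.04 without any one of ICT1-8098 replicate 4 or Col-0 replicate 5). For the clock list the number higher was 0 without any one of ICT1-8098 replicate 5 or Col-0 replicate 4, and 2 without Col-0 replicate 3, and the number lower was 1 without any one of ICT1-8098 replicates 1 and 5 or Col-0 replicates 3, 4 and 5. Of 16 phenylpropanoid genes 1 fell, 6.25% against 6.17% of all genes (median 0.08, turning to -0.05 to -0.03 without any one of ICT1-8098 replicate 1 or Col-0 replicate 4), where the number lower was 0 without any one of ICT1-8098 replicates 1, 4 and 5 or Col-0 replicates 4 and 5, and 2 without Col-0 replicate 3. Expansin and xyloglucan genes fell in 1 of 21 cases, 4.76% against 6.17% of all genes (median -0.03, turning to 0.01 to 0.17 without any one of ICT1-8098 replicates 1 and 5 or Col-0 replicates 4 and 5 and to -0.34 without Col-0 replicate 3), where the number higher was 1 without ICT1-8098 replicate 1, and the number lower was 0 without any one of ICT1-8098 replicates 4 and 5.

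Of 19 photosynthesis markers of the shoot, 8 fell in ICT1-8098 (42.1%, against 6.17% of all genes) and 0 rose (median -1.05). They summed to 2225, 2243 and 1832 normalized counts in ICT1-8098, against 6948, 3769.7 and 2477 in Col-0. Col-0 replicate 3 was the highest library. Among photosynthesis genes the number lower was 3 without Col-0 replicate 3, 4 without any one of ICT1-8098 replicates 4 and 5 or Col-0 replicate 4, and 5 without ICT1-8098 replicate 1. RBCS3B, a small subunit of Rubisco, had 0, 1.72 and 3.76 normalized counts in ICT1-8098, against 71.7, 49.5 and 32.5 in Col-0 (log2 fold change -4.40, SE 0.79, adjusted p = 0.00036), and LHCB2.1, a light-harvesting protein, had 0, 3.44 and 1.88 normalized counts in ICT1-8098, against 41.2, 34.0 and 15.8 in Col-0 (log2 fold change -3.64, SE 0.67, adjusted p = 0.00045). Both belong to families of near-identical copies. With 200 µM I3C, 18 of these markers were lower in ICT1-8098 and 0 higher (median -2.59), where 11.8% of all genes tested were lower. The part of these markers in the other differences was not tested.

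With 200 µM I3C the same lines differed in 5133 of 21180 genes (24.2%), in libraries that are not shared with the DMSO comparison. There, 2642 genes were higher in ICT1-8098 (12.5%) and 2491 lower (11.8%). When libraries were scaled to total reads, 4486 of 5837 calls were higher (76.9%, against 51.5% with the deposited size factors). Of the 2579 genes called with DMSO, 1755 were called in the same direction with I3C, which is 68% of the DMSO calls and 34.2% of the I3C calls, and 7 were called in the opposite direction. The sign was the same for 2452 of the 2579 (95.1%). The number of I3C calls fell to 1476 when only the compared groups were in the fit, to 2938 without Col-0 replicate 4 of that treatment and to 3320 without ICT1-8098 replicate 2 of it.

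A test of the difference between these line effects passed for 56 genes (0.264%), 31 higher (0.146%) and 25 lower (0.118%) with I3C, and 24 of these also passed with DMSO. Scaling to total reads gave 66 such genes, 71.2% of them higher, against 55.4% with the deposited size factors. Among those that passed in both tests, HSP18.1 had 1324, 4032 and 3449 normalized counts in ICT1-8098 with I3C, against 4705, 7446 and 4913 in Col-0 with I3C. It was thus higher in the line with DMSO and lower in the line with I3C (-1.07, adjusted p = 0.0276 with I3C), a difference of -4.24 on the log2 scale, SE 0.49, adjusted p = 9.34e-05. PER34 had 6377, 7011 and 6068 normalized counts in ICT1-8098 with I3C, against 228, 277 and 301 in Col-0 with I3C, a line effect of 4.60 that differed from the DMSO effect by -4.73 on the log2 scale, SE 0.57, adjusted p = 0.000133. The DMSO effect of PER34 was measured against 10 reads in Col-0, so the size of this difference depends on the pseudocount. ASY2, a meiotic chromosome axis protein, had 135, 171 and 107 normalized counts in ICT1-8098, against 32.1, 43.3 and 22 in Col-0 with DMSO (log2 fold change 2.08, SE 0.38, adjusted p = 0.000495). With I3C it had 99.7, 136 and 169.9 in the line and 725, 289.8 and 412 in Col-0, and the effects differed by -3.81 on the log2 scale, SE 0.54, adjusted p = 0.00103. APRR7, a repressor of the circadian clock, had 569, 525 and 548 normalized counts in ICT1-8098, against 1366, 859 and 1082 in Col-0 with DMSO, and 1086, 1714 and 1723 in the line against 938, 565 and 534 in Col-0 with I3C. The clock gene was lower in the line in one treatment and higher in the other (-0.98, adjusted p = 0.00498 with DMSO, 1.17, adjusted p = 0.000784 with I3C, difference 2.15 on the log2 scale, SE 0.32, adjusted p = 0.002).

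cPT4, an undecaprenyl pyrophosphate synthetase of the cis-prenyltransferase family, had 59.1, 54.2 and 64.8 normalized counts in ICT1-8098, against 0.820, 3.86 and 7.03 in Col-0 with DMSO (log2 fold change 3.86, SE 0.42, adjusted p = 4.03e-07). With I3C it had 305, 679 and 822 in the line and 621, 698 and 679 in Col-0, groups that overlap (difference of effects -4.12 on the log2 scale, SE 0.60, adjusted p = 0.00136). The low Col-0 counts of cPT4 with DMSO make the size of this difference depend on the pseudocount. AT4G19520, a receptor of the TIR class, had 115, 91.1 and 101 normalized counts in ICT1-8098, against 0, 0.770 and 0 in Col-0 with DMSO. With I3C it had 638, 664 and 508 in the line and no reads in Col-0, a fitted difference of effects of 2.82 on the log2 scale, SE 0.39, adjusted p = 0.000793, which depends on the pseudocount. Among list members, ORG3 (3.24 on the log2 scale, SE 0.69, adjusted p = 0.0454) and LSU3 (-2.49 on the log2 scale, SE 0.54, adjusted p = 0.0487) passed this test too: both differed between the lines with DMSO, whereas with I3C ORG3 had a line effect of 1.12, adjusted p = 0.0986, and LSU3 had -0.33, adjusted p = 0.566. The number of genes passing was 6 with only the compared groups in the fit, 15 with voom weights on the recovered reads and between 29 and 369 when 1 library was left out.

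**Figure D5:**
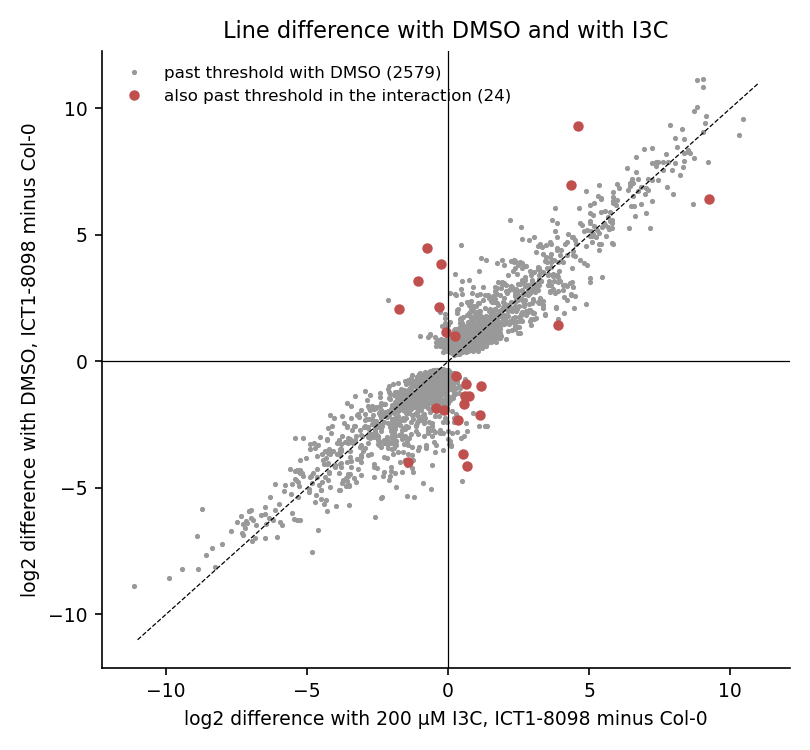
Line difference with DMSO (vertical axis) against that with 200 µM I3C (horizontal axis), both ICT1-8098 minus Col-0 on the log2 scale, for the 2579 genes called with DMSO (grey), with the 24 that also pass the test of the difference in red and equal differences as a dashed line. Of the 2579 genes, 2452 have the same sign in both treatments.

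The line labelled ICT1-2 carries, per its label, another S30 transgene, although its summed S30 counts were not above Col-0, and was measured against the same Col-0 DMSO libraries, so its values are given beside those of ICT1-8098 and not as a second test. Relative to these Col-0 libraries, the log2 differences in ICT1-8098 and ICT1-2 were 1.13 and -0.11 for AT2G19750, -2.52 and -1.79 for NAS4, and -1.99 and -2.14 for TSB2. For RAB18 they were -5.36 and -7.92, for ALD1 -2.42 and -2.35, and for THAS1 2.86 and 2.70. ZAT10 had -1.51 in ICT1-8098 and 1.03 in ICT1-2, OXI1 had -1.06 and 1.09, and GRXC9 had -1.40 and 1.68, so that these 3 genes were lower than Col-0 in ICT1-8098 and higher than Col-0 in ICT1-2. Its 2 DMSO libraries had 396 and 441 normalized counts of ATG8B, 15 and 16.5 of MYB29 and 15 and 16.5 of BGLU18. The third DMSO library of ICT1-2 was not analysed here.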

How the data were processed

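Root RNA was taken with Trizol and DNase and made into TruSeq RNA v2 libraries, per the labels' protocols. TopHat2 2.1.0, HTSeq 0.6.1, DESeq2 1.18.1 and TAIR10 are named, with no role, in the submitters' processing notes. The authors deposited normalized counts, per the file headers, with the libraries of each group held together in 1 cell, for 34262 genes, 6121 of them without reads. Dividing by the smallest step of each library gave whole reads, within 0.1 reads, for 100% of the values in each of the 26 libraries. Total reads therefore set the depth, and a count of 0 reads was given a floor of 3 reads over the group.

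limma 3.58.1 in R 4.3.3 was fitted with its trend option to log2(normalized count + 1) for 21180 genes with at least 10 normalized counts in 3 libraries. The 26 libraries of 9 groups entered 1 fit, and adjusted p-values are by Benjamini-Hochberg over all genes tested. Tables were handled in Python 3.11.15. The script was tested on simulated data. The 6 DMSO libraries of ICT1-8098 and Col-0 were compared pair by pair, and no pair was alike within sampling noise. The other libraries were not compared in this way. The count-model tests planned as alternatives were not run, and voom weights on the recovered reads were tried instead. The authors' deposited table also holds a log2 fold change and p-values per comparison, which served as an alternative only.

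Named genes are the S30 genes, the 15 largest separated rises and falls with 50 or more normalized counts, up to 4 passing members per list (2 where none passed), the 8 smallest adjusted p-values shared in direction with I3C, and the 6 leading genes of the test of the difference between treatments. Not all of these are described, 1 gene is not reported here, and exceptions are named as chosen after their values were seen. The members and the 37 lists (646 of 650 genes matched) were chosen with earlier results of these data known. Coordinates and sequences are from the RefSeq TAIR10 annotation, in which 32548 genes matched the table and 99.988% of these shared a start or an end with it.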

Additional observations from a re-analysis of the deposited data

Results flagged for a closer look

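For 8 of the genes described, the difference between ICT1-8098 and Col-0 itself differed between 200 µM I3C and DMSO, by limma's test of the interaction with Benjamini-Hochberg adjustment, and each is given as the I3C difference minus the DMSO difference on the log2 scale. The difference was lower with I3C for PER34 (-4.73, adjusted p = 0.000133), HSP18.1 (-4.24, adjusted p = 9.34e-05), cPT4 (-4.12, adjusted p = 0.00136), ASY2 (-3.81, adjusted p = 0.00103) and LSU3 (-2.49, adjusted p = 0.0487). It was higher with I3C for ORG3 (3.24, adjusted p = 0.0454), AT4G19520 (2.82, adjusted p = 0.000793) and APRR7 (2.15, adjusted p = 0.002). All rest on 3 libraries per group, and no group of 3 was tested for a library far from the others. Over all genes, 6 passed this test with only the compared groups in the fit, and 15 with voom weights on the recovered reads. Which of the 8 were among them is not given. The sizes for PER34, HSP18.1, cPT4 and AT4G19520, with few or no reads in Col-0 with DMSO, depend on the pseudocount.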

How the results depend on the processing

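The number of genes that differed with DMSO, 2579, ranged from 2232 to 3144 under the other filters, pseudocounts, scalings and weights tried and with only the compared groups in the fit, and was 3210 in the authors' deposited table, where 2544 of the 2579 genes were called in the same direction. It was 1466 when an absolute log2 fold change over 1 was also asked for, and 1702 to 2701 with 1 library left out. With 200 µM I3C the count of 5133 became 1476 with only the compared groups in the fit, 2189 with the fold asked for, and 2938 to 6692 with 1 library left out. The 56 genes of the test of the difference became 6 with only the compared groups, 15 with voom weights, and 29 to 369 with 1 library left out (29 without Col-0 DMSO replicate 4, 95 without its replicate 3, and 369 without Col-0 I3C replicate 1). The cause of these shifts was not tested. In the DMSO comparison, 63 of 99 genes described stayed on their side of the threshold under every setting tried, 36 lost a call under at least 1, and none reversed. Calls with I3C and in the test of the difference are not given gene by gene under these settings. Replicate numbers were given in the labels, but only 4 and 5 are shared by the DMSO groups, and deviations of same-numbered libraries correlated at 0.108 and 0.0757, so the numbers do not pair the samples. With the replicate number as a block, 2342 genes passed with DMSO, 4595 with I3C and 52 in the test of the difference, and the calls of MAF4, LSU1, IGMT1, HSP23.5, SARD1 and WRKY33 were lost (adjusted p = 0.0606 to 0.105). The planned edgeR and DESeq2 fits were not run. Genes with few reads are the least certain: a floor of 3 reads over a group bounds each fold against a silent group, and 5134 genes had an unadjusted p under 0.05 with DMSO.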
